A study of Mus musculus with 15 samples.

Results

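Semaphorins, plexins and neuropilins are the ligands, receptors and co-receptors of a guidance system that steers axons, migrating cells and growing vessels. All genes with a standard mouse symbol of these families were taken, that is Sema followed by a digit and a letter, Plxn followed by a letter from a to d and a digit, and Nrp1 and Nrp2. This gave 31 of the 23244 gene entries, 20 semaphorins, 9 plexins and both neuropilins, each with 1 entry and none sharing an entry with another gene. By class there were 7 class 3, 6 class 4, 2 class 5, 4 class 6 and 1 class 7 semaphorin, with 4 plexins of type A, 3 of type B, 1 of type C and 1 of type D. The genes were taken by symbol alone, although earlier results of these data were known when the family was chosen.

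The expression values came from RNA-Seq of optic tissue grown by SFEBq, a serum-free floating culture in which 3000 dissociated mouse embryonic stem (ES) cells per well reaggregate and form neural epithelium. Matrigel was added to the aggregates at a final 4% for every group. A single ES line was used for every group, EB5 Rx::GFP+/-, whose GFP reports the eye field gene rx, and its ES cells were kept in LIF, blasticidin and medium with CHIR99201 and, per the labels, PD184352. The methods of the study name a different PD compound. The 5 groups held 3 libraries each. Day 10 Rx::GFP+ was GFP-positive epithelium cut from the aggregates at Day 10, and the other groups were such explants cultured on in retinal maturation medium. The +Wnt explants received CHIR99201, an inhibitor of GSK3, at 3 µM for 24 hours and 1 µM thereafter, and were collected at Day 12 or Day 15. The +Fgf explants received 5 ng/ml human bFgf with 10% FBS and were collected on the same days, so bFgf and serum cannot be told apart in them. The study describes its +Wnt tissue as mostly, not wholly, of pigment epithelium character and its +Fgf tissue as mostly of neural retina character. Explants cultured without either stimulation were not analysed here, so a change from Day 10 holds the stimulation and the elapsed time together.

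As background, plexins are the signalling receptors, and their cytoplasmic part acts on small GTPases and, through them, on the cytoskeleton. Secreted class 3 semaphorins mostly need a neuropilin to bind a type A plexin, while Sema3e can bind Plxnd1 directly, and neuropilins also bind Vegf. Semaphorins of classes 4 to 6 are transmembrane proteins and Sema7a is held by a lipid anchor. In the eye the family is known for guiding ganglion cell axons and sorting the inner retinal layers, and for patterning retinal vessels.

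The deposited values are read counts scaled to a common library size (CPM), and the reads recovered from them ranged from 12556998 to 16175450 per library, so that 1 read was worth 0.0620 to 0.0764 CPM. Of the 31 genes, 29 passed the filter of at least 1 CPM in at least 3 libraries and were tested. Plxnb3 had no read in any Day 10 or Day 12 library and at most 5 reads at Day 15, and Sema3g had at most 10 reads in any library, so neither was tested. At this depth a count of 0 allows up to 3 reads, which covers counting error only. Groups were compared with limma on log2(CPM + 0.3), a scale that understates the change of genes near 0, and every adjusted p of this fit is Benjamini-Hochberg adjusted over the 13845 genes tested. Fits with a single library left out were filtered anew, and their adjusted p is over the genes passing in each fit. RNA integrity number, a measure of RNA degradation, was lowest in the Day 15 +Fgf libraries, and values with it as a covariate are given beside the calls that it ended. The libraries are labelled as biological replicates of a group, and the sources do not say whether they came from separate differentiations.

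Lists of marker genes were used to check the tissue. The summed level of 11 pigment epithelium genes was 5526 to 7113 CPM at Day 15 +Wnt against 346 to 420 CPM at Day 15 +Fgf, although Rpe65, the visual cycle isomerase, had at most 3 reads in every library. The pigment sum was 1031 to 1392 CPM at Day 10, 359 to 406 CPM at Day 12 +Fgf and 1412 to 1822 CPM at Day 12 +Wnt. The 10 optic progenitor genes summed to 3893 to 4200 CPM at Day 15 +Fgf and to 693 to 742 CPM at Day 15 +Wnt. Their sum was 2730 to 2960 CPM at Day 10, 3993 to 4310 CPM at Day 12 +Fgf and 953 to 1021 CPM at Day 12 +Wnt. Other lists moved with the groups too. The 13 genes of ganglion cells and early neurons summed to 219 to 295 CPM at Day 10, 396 to 433 CPM at Day 12 +Fgf, 717 to 994 CPM at Day 12 +Wnt, 2330 to 2590 CPM at Day 15 +Fgf and 1604 to 1969 CPM at Day 15 +Wnt. Pou4f2 had at most 3 reads in every Day 10 library and Atoh7 in every Day 15 +Wnt library. This sum does not separate ganglion cells from other early neurons. By staining, the study found Pou4f2-marked ganglion cells after Fgf but not after Wnt stimulation. In Day 15 +Wnt the 9 neural crest and mesenchyme genes reached 402 to 472 CPM and the 6 forebrain genes 412 to 487 CPM, the highest of the 5 groups for both. Of the former, Sox10 and Foxd3 had at most 3 reads in every Day 12 +Wnt and Day 15 +Wnt library. Of the latter, Nkx2-1 had at most 3 reads in every Day 15 +Wnt library. The 6 photoreceptor precursor genes summed to 57.6 to 69.7 CPM at Day 10, 18.9 to 21.5 CPM at Day 12 +Fgf, 79.0 to 90.0 CPM at Day 12 +Wnt, 188 to 233 CPM at Day 15 +Fgf and 28.3 to 33.4 CPM at Day 15 +Wnt. The 8 endothelial genes summed to 3.41 to 3.97 CPM at Day 10, 2.35 to 2.81 CPM at Day 12 +Fgf, 3.71 to 4.18 CPM at Day 12 +Wnt, 2.76 to 3.98 CPM at Day 15 +Fgf and 6.82 to 9.32 CPM at Day 15 +Wnt. The 7 microglia and macrophage genes stayed at or under 3.61 CPM except at Day 15 +Wnt, where they summed to 20.7 to 23.9 CPM with 5 of the 7 at no more than 3 reads. In bulk tissue fewer cells of a type and less RNA per cell cannot be told apart, and the part these cell types had in the results below was not tested.

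Promoter windows are shown for 4 genes, those in which the change from Day 12 to Day 15 differed most between the stimulations. They were taken from RefSeq on GRCm38.p6, the assembly also called mm10, and run from 250 bases before to 50 bases after an annotated start. Capitals mark the letters of a TCF/LEF motif (CTTTGAA or CTTTGAT), the sequence through which Wnt/β-catenin signalling acts, and of an E-box (CACGTG or CATGTG), a sequence bound by the pigment cell factor Mitf, on either strand.
Sema3e, chr5:14025026-14025325, plus strand: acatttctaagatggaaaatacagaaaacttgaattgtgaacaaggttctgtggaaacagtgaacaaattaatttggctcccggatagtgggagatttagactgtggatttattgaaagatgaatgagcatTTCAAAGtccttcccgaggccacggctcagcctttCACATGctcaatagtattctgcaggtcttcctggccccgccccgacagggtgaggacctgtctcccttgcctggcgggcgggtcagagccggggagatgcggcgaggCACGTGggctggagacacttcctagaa
Sema3d, chr5:12382916-12383215, plus strand: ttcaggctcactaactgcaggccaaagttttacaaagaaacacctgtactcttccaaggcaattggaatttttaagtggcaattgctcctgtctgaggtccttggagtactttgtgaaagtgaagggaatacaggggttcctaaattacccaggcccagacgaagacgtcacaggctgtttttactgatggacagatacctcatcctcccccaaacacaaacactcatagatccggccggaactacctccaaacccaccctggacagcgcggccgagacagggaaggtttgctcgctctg
Plxnd1, chr6:115994956-115995255, minus strand: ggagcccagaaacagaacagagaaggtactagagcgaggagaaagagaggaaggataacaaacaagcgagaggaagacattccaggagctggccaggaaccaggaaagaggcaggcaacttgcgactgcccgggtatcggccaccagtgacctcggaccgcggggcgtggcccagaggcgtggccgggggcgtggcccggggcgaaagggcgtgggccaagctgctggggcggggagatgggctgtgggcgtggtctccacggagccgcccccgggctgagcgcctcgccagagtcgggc
Nrp2, chr1:62703067-62703366, plus strand: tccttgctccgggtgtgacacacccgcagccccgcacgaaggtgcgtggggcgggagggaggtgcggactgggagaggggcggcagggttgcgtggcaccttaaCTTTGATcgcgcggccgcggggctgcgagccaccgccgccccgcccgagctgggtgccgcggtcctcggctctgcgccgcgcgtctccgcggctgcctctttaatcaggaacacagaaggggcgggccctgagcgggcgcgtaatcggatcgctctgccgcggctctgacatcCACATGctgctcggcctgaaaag
The Sema3e window held 1 TCF/LEF match and 2 E-box matches, and the Nrp2 window held 1 of each. Neither motif was found in the Sema3d or Plxnd1 window. Windows were found for 26 of the 31 genes, 37 windows in all. A TCF/LEF match was present in 2 of these 37 windows (5.41%), against 8.65% of all 32851 windows, and an E-box match in 5 (13.5%), against 20.4% of all windows. The genes with an E-box match were Nrp2, Sema3e, Sema4b, Sema6c and Sema6d. A match is a description of the letters and not of a bound site.

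Each comparison was first read over all members. In Day 12 +Wnt tissue, 22 of the 29 tested genes differed from Day 10, 8 higher and 14 lower, where 60.2% of all genes tested were called (30.6% higher, 29.6% lower). In Day 12 +Fgf tissue 18 differed from Day 10, 13 higher and 5 lower, against 55.7% of all genes (27.9% and 27.8%). These comparisons share the Day 10 libraries. From Day 12 to Day 15 under Wnt stimulation 24 genes changed, 23 of them upward and Sema4c alone downward, against 68.0% of all genes called, of which 32.5% were higher and 35.5% lower. Under Fgf stimulation 20 changed over the same days, 13 upward and 7 downward, against 57.1% (27.2% and 29.9%). Between the stimulations, 17 genes differed at Day 12, 12 higher and 5 lower in +Fgf, where 51.5% of all genes did (26.3% and 25.2%), and 18 differed at Day 15, 6 higher and 12 lower in +Fgf, where 68.7% of all genes did (38.0% and 30.6%). With RNA integrity number as a covariate, 15 members were called in Day 15 +Fgf against Day 12 +Fgf, where 25.9% of all genes then were, and 15 between the stimulations at Day 15, where 46.0% were.

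The split under Wnt stimulation was the most uneven of the 6. The median log2 fold change of the 29 genes from Day 12 to Day 15 +Wnt was 0.87, beside -0.02 over all genes tested, and 13 members at least doubled while none fell to that extent, where 16.7% of all genes moved by that much. In the other comparisons the members' median lay between -0.24 and 0.24. A change of at least 1 on the log2 scale with an adjusted p under 0.05 was called for 5 members in Day 12 +Fgf against Day 10 (9.34% of all genes tested), for 8 in Day 12 +Wnt against Day 10 (10.5%) and for 7 in Day 15 +Fgf against Day 12 +Fgf (12.3%). Between the stimulations it was called for 7 at Day 12 (12.7%) and 9 at Day 15 (19.7%). The libraries of the groups did not overlap for 26 members in Day 15 +Wnt against Day 12 +Wnt (72.8% of all genes) and for 20 in Day 15 +Fgf against Day 12 +Fgf (63.7%). The same held for 20 members in Day 12 +Fgf against Day 10 (61.0%), 23 in Day 12 +Wnt against Day 10 (64.3%), 20 between the stimulations at Day 12 (60.4%) and 21 at Day 15 (73.1%).

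**Figure D1:**
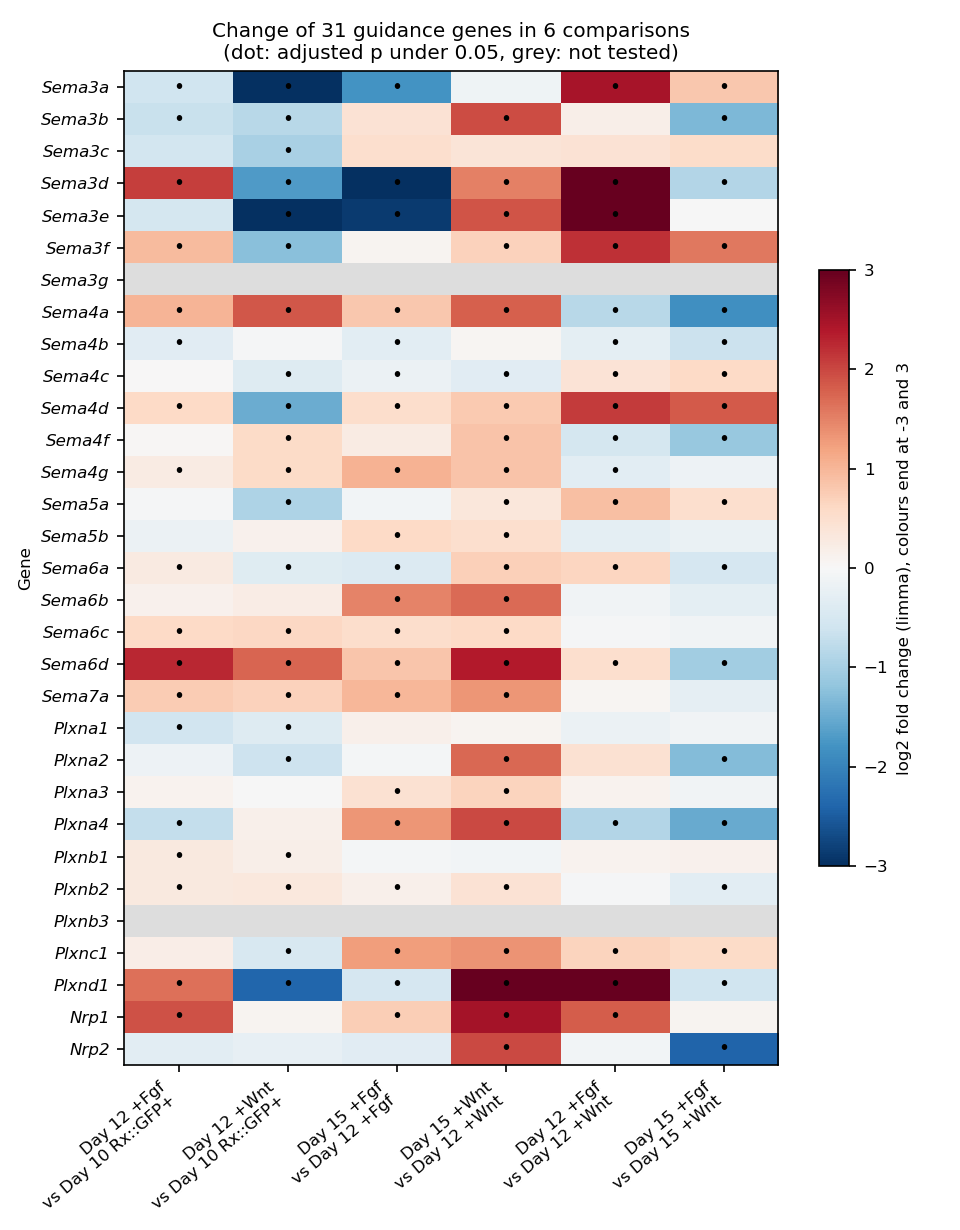
Heat map of the log2 fold change (colour, limma, ending at -3 and 3) of the 31 genes (rows) in 6 comparisons (columns), with a dot where the adjusted p was under 0.05 and grey for the untested Sema3g and Plxnb3. The column for Day 15 +Wnt against Day 12 +Wnt holds 23 higher and 1 lower gene among its dots, while the class 3 rows at the top are lower in Day 12 +Wnt against Day 10.

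Class 3 semaphorins, the secreted ligands, were lower at Day 12 of Wnt stimulation. All 6 tested genes of the class were called lower in Day 12 +Wnt than at Day 10, where 29.6% of all genes were. The Sema3c call among them was lost when certain single libraries were left out, as given below. Of the 6, 4 were higher in Day 12 +Fgf than in Day 12 +Wnt, where 26.3% of all genes were. The class was split at Day 15, with 2 higher and 2 lower in +Fgf than in +Wnt, beside 38.0% and 30.6% of all genes. From Day 12 to Day 15, 4 rose and none fell in +Wnt, beside 32.5% and 35.5% of all genes. In +Fgf none rose and 3 fell over these days, beside 27.2% and 29.9% of all genes. Per kb of exon, the summed level of the 7 class 3 genes was 23.2 ± 0.370 CPM per kb at Day 10 and 6.14 ± 0.161 CPM per kb at Day 12 +Wnt (mean ± SD, n = 3), against 29.6 ± 2.25 CPM per kb at Day 12 +Fgf. On the plus strand of chromosome 5 lie 4 members of the class, Sema3d from 12383385 to 12588948, Sema3a from 13125414 to 13602565, Sema3e from 14025276 to 14256689 and, farther away, Sema3c from 17574281 to 17730268 (GRCm38). Sema3b and Sema3f lie on the minus strand of chromosome 9.

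Sema3a, the classic growth cone repellent that acts through Nrp1, was measured at 97.2, 106 and 102 CPM in the Day 10 libraries. It was at 64.8, 65.5 and 73.0 CPM in the Day 12 +Fgf libraries and at 11.4, 12.2 and 12.1 CPM in those of Day 12 +Wnt. By Day 15 the values were 18.8, 20.7 and 18.4 CPM in +Fgf and 10.4, 10.1 and 12.3 CPM in +Wnt. Sema3a was thus highest before stimulation, with no overlap between Day 10 and any other group. It fell by 3.06 ± 0.08 on the log2 scale (± SE, adjusted p = 1.57e-13) in Day 12 +Wnt, an 8.37-fold drop, and by 0.59 ± 0.08 (adjusted p = 1.46e-05) in Day 12 +Fgf. In +Fgf tissue the larger drop came later, by 1.79 ± 0.08 from Day 12 to Day 15 (adjusted p = 4.07e-11), and at Day 15 the level was still higher in +Fgf than in +Wnt (log2 fold change 0.81 ± 0.08, adjusted p = 1.48e-07).

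Sema3e, the ligand that binds Plxnd1, was at 31.3, 33.5 and 38.2 CPM at Day 10 and at 23.4, 24.9 and 22.6 CPM in Day 12 +Fgf. In Day 12 +Wnt its values were 1.07, 0.278 and 0.596 CPM, below every library of the other groups. By Day 15 it was at 2.95, 2.95 and 3.04 CPM in +Fgf and 3.78, 3.28 and 2.17 CPM in +Wnt, and these groups overlapped. The drop from Day 10 to Day 12 +Wnt was 38.7-fold on the log2(CPM + 0.3) scale (log2 fold change -5.27 ± 0.24, adjusted p = 7.64e-11). Within +Fgf the drop followed between Day 12 and Day 15 (log2 fold change -2.87 ± 0.24, adjusted p = 3.37e-08), whereas in +Wnt Sema3e rose over these days from its low level (log2 fold change 1.89 ± 0.24, adjusted p = 2.22e-06). The size of the values against Day 12 +Wnt moved with the pseudocount, from -5.79 with 0.05 CPM to -4.45 with 1 CPM for Day 12 +Wnt against Day 10, and the rise to Day 15 +Wnt was 1.21 after quantile normalization.

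Sema3d, a class 3 ligand expressed in several embryonic epithelia, moved in opposite directions under the stimulations. It was at 10.4, 9.96 and 10.8 CPM at Day 10, 38.1, 39.9 and 59.3 CPM in the Day 12 +Fgf libraries and 2.89, 2.71 and 3.51 CPM in those of Day 12 +Wnt. The Day 12 +Fgf libraries thus stood above all others and those of Day 12 +Wnt below all others. By Day 15 the levels were 5.31, 4.19 and 5.09 CPM in +Fgf and 8.87, 8.65 and 10.1 CPM in +Wnt, so the order of the stimulations had turned. Against Day 10 the log2 fold change was 2.08 ± 0.15, adjusted p = 1.56e-08 in Day 12 +Fgf and -1.69 ± 0.15, adjusted p = 1.14e-07 in Day 12 +Wnt. From Day 12 to Day 15 Sema3d fell in +Fgf (log2 fold change -3.14 ± 0.15, adjusted p = 9.47e-11) and rose in +Wnt (log2 fold change 1.51 ± 0.15, adjusted p = 2.04e-07), and at Day 15 it was lower in +Fgf than in +Wnt (log2 fold change -0.88 ± 0.15, adjusted p = 7.55e-05).

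Sema3f, a repellent that acts through Nrp2, was, like Sema3a, higher in +Fgf than in +Wnt on both days. Its level was 41.8, 38.3 and 37.4 CPM at Day 10, and 74.0, 72.6 and 81.1 CPM in Day 12 +Fgf against 15.3, 17.5 and 16.2 CPM in Day 12 +Wnt. At Day 15 it was 88.9, 74.0 and 79.4 CPM in +Fgf against 29.2, 24.3 and 26.2 CPM in +Wnt. All +Fgf libraries lay above those of Day 10 and all +Wnt libraries below them. The difference between +Fgf and +Wnt was 4.58-fold at Day 12 (log2 fold change 2.20 ± 0.08, adjusted p = 2.76e-12) and 3.02-fold at Day 15 (log2 fold change 1.59 ± 0.08, adjusted p = 4e-11).

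Sema3b, also a secreted ligand that uses neuropilins, was low until Day 15. Its values were 3.82, 2.41 and 2.52 CPM at Day 10, 1.58, 2.10 and 1.47 CPM in the Day 12 +Fgf libraries and 1.82, 1.18 and 1.46 CPM in those of Day 12 +Wnt. At Day 15 they were 1.77, 2.47 and 3.11 CPM in +Fgf and 7.07, 5.29 and 7.65 CPM in +Wnt, with the +Wnt libraries above all others. The rise within +Wnt was 3.90-fold (log2 fold change 1.96 ± 0.23, adjusted p = 1.11e-06, and 1.35 after quantile normalization), and Sema3b was lower in +Fgf than in +Wnt at Day 15 (log2 fold change -1.36 ± 0.23, adjusted p = 6.06e-05), a call that was not made with RNA integrity number as a covariate (-0.94, adjusted p = 0.0833). It was also lower than at Day 10 in both Day 12 groups, by 0.66 in +Fgf and by 0.84 in +Wnt on the log2 scale, but the +Fgf call was lost without Day 10 replicate 1 (-0.47, adjusted p = 0.12), without Day 12 +Fgf replicate 1 (-0.61, adjusted p = 0.0654) and without Day 12 +Fgf replicate 3 (-0.57, adjusted p = 0.0805).

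Sema3c, which binds both neuropilins, differed between replicates in 1 group, with 8.11, 20.1 and 43.2 CPM in Day 15 +Fgf. Its other groups averaged 20.0 ± 2.19 CPM at Day 10, 13.6 ± 1.95 CPM in Day 12 +Fgf, 9.91 ± 0.352 CPM in the Day 12 +Wnt libraries and 13.2 ± 1.96 CPM in those of Day 15 +Wnt. Of the comparisons, Day 12 +Wnt against Day 10 passed the test (log2 fold change -0.98 ± 0.36, adjusted p = 0.0261). That call was lost without Day 10 replicate 1 (-0.97, adjusted p = 0.0574) or 3 (-0.91, adjusted p = 0.0732) and without Day 12 +Wnt replicate 1 (-0.96, adjusted p = 0.0589), 2 (-1.01, adjusted p = 0.0506) or 3 (-0.98, adjusted p = 0.0587), so that the statement on all 6 tested class 3 genes rests on every one of these libraries.

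**Figure D2:**
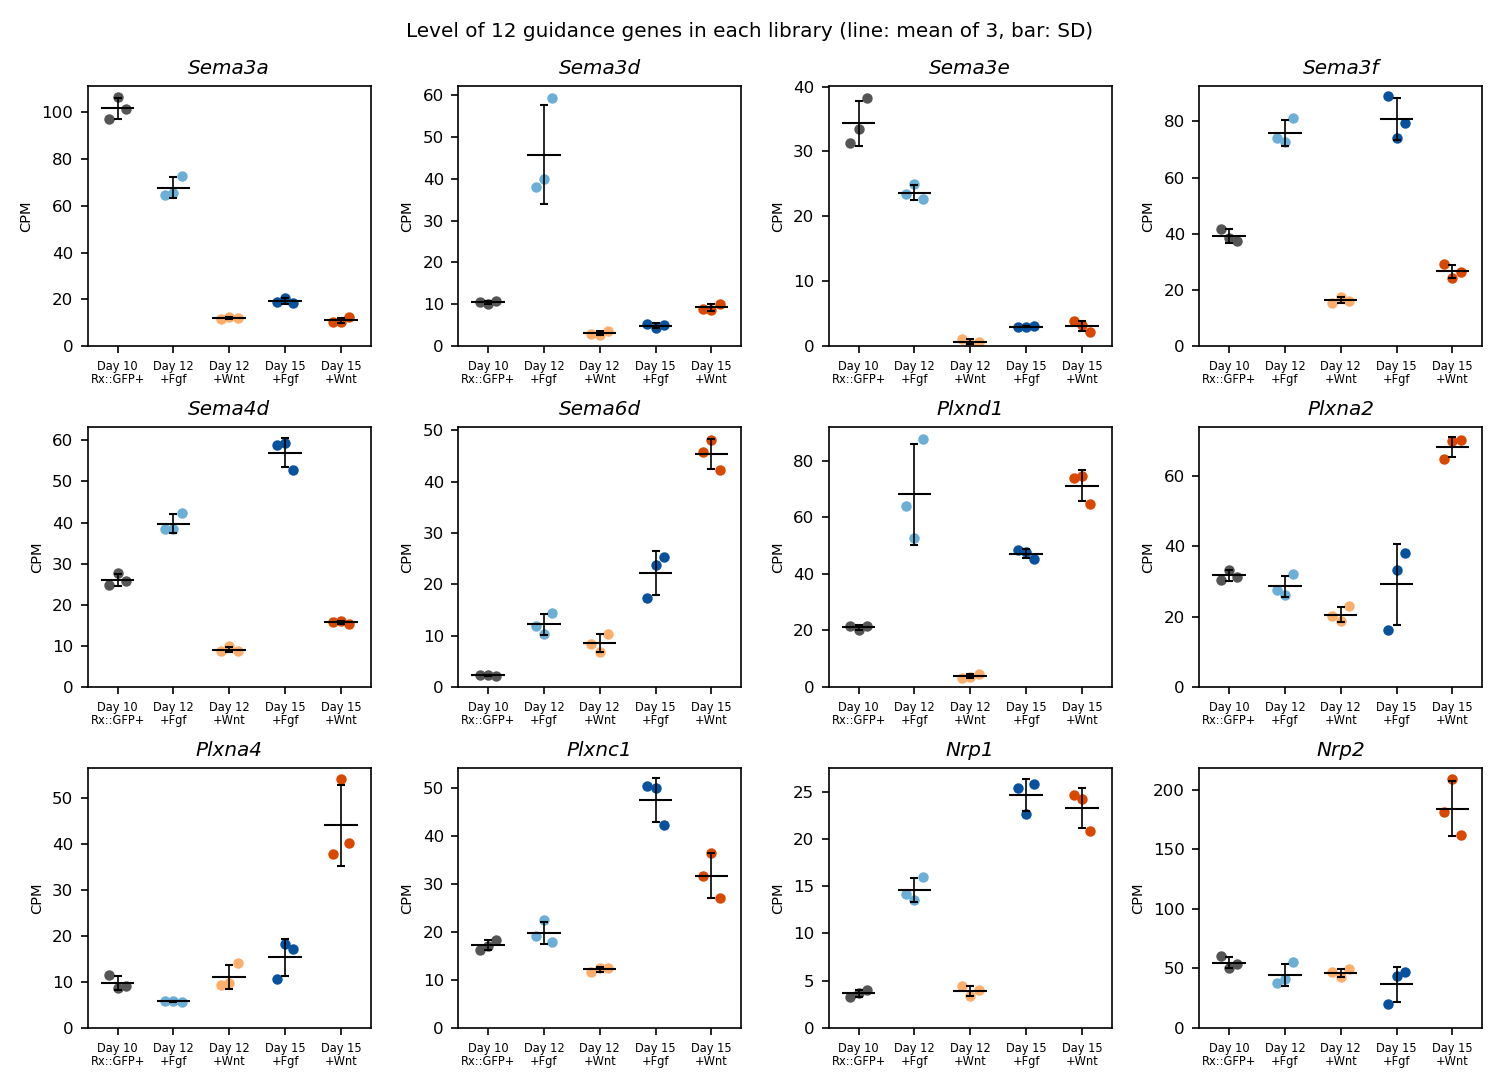
Expression level in CPM (vertical axes, each starting at 0) of 12 genes of the family in each of the 15 libraries (points), by group (horizontal axes), with the mean of 3 libraries (line) and the SD (bar). Sema3a and Sema3e are highest at Day 10, Sema3d and Plxnd1 are high in Day 12 +Fgf and low in Day 12 +Wnt, and Nrp2 lies between 162 and 209 CPM in Day 15 +Wnt against at most 60.2 CPM elsewhere.

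Class 4 semaphorins are transmembrane ligands, several of which bind type B plexins. Sema4d, the ligand of Plxnb1, was at 24.8, 27.6 and 25.8 CPM at Day 10. It was at 38.5, 38.5 and 42.3 CPM in the Day 12 +Fgf libraries and 58.8, 59.3 and 52.9 CPM in those of Day 15 +Fgf, against 8.68, 9.88 and 8.67 CPM in the Day 12 +Wnt libraries and 15.8, 16.0 and 15.4 CPM in those of Day 15 +Wnt. Every +Fgf library lay above the Day 10 libraries and every +Wnt library below them. The stimulations differed 4.27-fold at Day 12 (log2 fold change 2.10 ± 0.08, adjusted p = 2.01e-12) and 3.57-fold at Day 15 (log2 fold change 1.84 ± 0.08, adjusted p = 2.69e-12). The rise from Day 12 to Day 15 in +Fgf (0.52 on the log2 scale) was lost with RNA integrity number as a covariate (0.27, adjusted p = 0.18).

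Sema4a, which has a known role in photoreceptor survival, showed the opposite order. It was at 0.477, 0.468 and 0.458 CPM at Day 10, 1.46, 1.34 and 1.02 CPM in the Day 12 +Fgf libraries and 2.20, 1.95 and 3.57 CPM in those of Day 12 +Wnt. The Day 15 values were 1.99, 2.54 and 2.83 CPM in +Fgf and 8.69, 9.84 and 9.82 CPM in +Wnt, the latter above every other library. The rise from Day 10 to Day 12 was larger in +Wnt (log2 fold change 1.86 ± 0.21, adjusted p = 1.05e-06) than in +Fgf (log2 fold change 1.02 ± 0.21, adjusted p = 0.000519), with +Fgf below +Wnt at Day 12 (-0.84, adjusted p = 0.00276) and at Day 15 (-1.83, adjusted p = 6.31e-07). With RNA integrity number as a covariate the Day 12 +Fgf value against Day 10 was 0.61 (adjusted p = 0.0869) and the Day 15 difference between the stimulations -1.22 (adjusted p = 0.0105). At these low levels the rises from Day 10 also depended on the pseudocount, with 1.26 in +Wnt and 0.63 in +Fgf when 1 CPM was added.

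Sema4f, a class 4 ligand of the nervous system, was at 3.54, 3.08 and 3.21 CPM at Day 10, 3.93, 3.57 and 2.75 CPM in the Day 12 +Fgf libraries and 4.72, 5.08 and 5.16 CPM in those of Day 12 +Wnt. The Day 15 levels were 3.47, 4.19 and 4.59 CPM in +Fgf and 9.06, 9.69 and 9.26 CPM in +Wnt. The +Wnt libraries were above those of +Fgf on both days, with a log2 fold change of +Fgf against +Wnt of -0.52 at Day 12 (adjusted p = 0.00672) and -1.14 at Day 15 (adjusted p = 2.7e-06). Its rise from Day 10 to Day 12 +Wnt (0.57 on the log2 scale) was lost with RNA integrity number as a covariate (0.41, adjusted p = 0.0828).

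Sema4g rose from Day 12 to Day 15 under both stimulations. Its levels were 18.7, 20.0 and 20.2 CPM at Day 10, then 23.0, 23.0 and 24.3 CPM in the Day 12 +Fgf libraries and 32.1, 26.5 and 29.5 CPM in those of Day 12 +Wnt. By Day 15 they had reached 49.6, 46.8 and 49.5 CPM in +Fgf and 54.4, 51.2 and 55.4 CPM in +Wnt. From Day 12 to Day 15 the log2 fold change was 1.04 ± 0.07, adjusted p = 3.77e-09 in +Fgf and 0.87 ± 0.07, adjusted p = 1.5e-08 in +Wnt. Of the smaller rises from Day 10, the one to Day 12 +Fgf (log2 fold change 0.25) was lost after quantile normalization (0.15, adjusted p = 0.0869) and with RNA integrity number as a covariate (0.17, adjusted p = 0.191). The difference between the changes from Day 12 to Day 15 was not past the threshold, at 0.18 ± 0.10 (adjusted p = 0.157). Of the remaining class 4 genes, Sema4b stayed between 13.9 and 27.1 CPM in all libraries and Sema4c between 46.2 and 86.6 CPM. Their small drops from Day 12 to Day 15 +Fgf, -0.31 and -0.17 on the log2 scale, were lost with that covariate (-0.22, adjusted p = 0.449, and -0.10, adjusted p = 0.591). The Sema4b call was also lost without Day 15 +Fgf replicate 2 (-0.24, adjusted p = 0.057), and the Sema4c call without Day 12 +Fgf replicate 1 or 3 or Day 15 +Fgf replicate 2 or 3 (adjusted p from 0.0507 to 0.138). Sema4c was lower in Day 15 +Wnt than in Day 12 +Wnt (log2 fold change -0.34 ± 0.06, adjusted p = 6.42e-05), the single member called lower in that comparison. An opposite-strand gene, D430040D24Rik, shares 334 bases, 7.3%, of the Sema4c exons. Without the strand setting of the counting, their reads there cannot be told apart.

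Class 5 and 6 semaphorins are transmembrane proteins, and those of class 6 bind type A plexins. Sema6d, a ligand of Plxna1, rose under both stimulations. It was at 2.38, 2.27 and 2.22 CPM at Day 10, 11.9, 10.4 and 14.4 CPM in the Day 12 +Fgf libraries and 8.43, 6.89 and 10.4 CPM in those of Day 12 +Wnt. At Day 15 it was at 17.3, 23.8 and 25.4 CPM in +Fgf and 45.8, 48.2 and 42.4 CPM in +Wnt. All stimulated libraries lay above those of Day 10, and the Day 15 +Wnt libraries above all others. Against Day 10 Sema6d rose 4.80-fold in Day 12 +Fgf (log2 fold change 2.26 ± 0.16, adjusted p = 7.75e-09) and 3.38-fold in Day 12 +Wnt (log2 fold change 1.76 ± 0.16, adjusted p = 9.35e-08), and it rose further from Day 12 to Day 15, by 0.83 in +Fgf and by 2.38 in +Wnt on the log2 scale. The difference between the stimulations at Day 12 (0.51, adjusted p = 0.0128) was lost without Day 12 +Fgf replicate 3 (0.38, adjusted p = 0.0714) and without Day 12 +Wnt replicate 2 (0.36, adjusted p = 0.0798).

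Sema6b, another ligand of type A plexins, stayed low through Day 12, at 4.16, 3.34 and 3.82 CPM at Day 10, 4.12, 4.52 and 3.77 CPM in the Day 12 +Fgf libraries and 3.71, 4.80 and 4.90 CPM in those of Day 12 +Wnt. It was at 11.1, 12.4 and 13.1 CPM in the Day 15 +Fgf libraries and 15.8, 14.6 and 14.9 CPM in those of Day 15 +Wnt. The rise from Day 12 to Day 15 was 2.82-fold in +Fgf (log2 fold change 1.50 ± 0.13, adjusted p = 7.4e-08) and 3.25-fold in +Wnt (log2 fold change 1.70 ± 0.13, adjusted p = 8.14e-09). Sema7a, the lipid-anchored member, was at 2.93, 3.94 and 3.06 CPM at Day 10, 5.26, 5.03 and 7.22 CPM in the Day 12 +Fgf libraries and 4.84, 5.22 and 6.55 CPM in those of Day 12 +Wnt, then at 9.37, 12.2 and 14.1 CPM in the Day 15 +Fgf libraries and 11.9, 15.3 and 15.7 CPM in those of Day 15 +Wnt. It rose from Day 12 to Day 15 in both (log2 fold change 0.99 ± 0.18, adjusted p = 0.000205 in +Fgf and 1.32 ± 0.18, adjusted p = 6.49e-06 in +Wnt). Its rises from Day 10 to Day 12, 0.76 in +Fgf and 0.69 in +Wnt on the log2 scale, were lost with RNA integrity number as a covariate (0.56, adjusted p = 0.0993, and 0.54, adjusted p = 0.0708). The libraries of both genes overlapped between the stimulations at Day 12, and Sema7a also at Day 15. These rises ran beside that of the neuronal marker list, whose part in them was not tested.

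The other class 5 and 6 genes moved less. Sema5a was lower in Day 12 +Wnt, at 36.3 ± 3.22 CPM, than at Day 10, at 69.3 ± 7.73 CPM (log2 fold change -0.93 ± 0.10, adjusted p = 8.27e-07), and was at 68.1 ± 8.10 CPM in Day 12 +Fgf. Sema5b ranged from 16.0 to 35.6 CPM over all libraries, and Sema6c from 13.4 to 45.9 CPM. With RNA integrity number as a covariate, the Sema6c rise from Day 12 to Day 15 +Fgf (0.52 on the log2 scale) became 0.58 (adjusted p = 0.121), and the Sema5a difference between +Fgf and +Wnt at Day 15 (0.49) became 0.41 (adjusted p = 0.0908). Sema6a, at 88.5 ± 10.2 CPM at Day 10, went to 107 ± 7.39 CPM in the Day 12 +Fgf libraries and 68.6 ± 2.47 CPM in those of Day 12 +Wnt, and the order had turned at Day 15, with 80.0 ± 4.14 CPM in +Fgf and 114 ± 13.2 CPM in +Wnt. All 4 class 6 genes and both class 5 genes were higher in Day 15 +Wnt than in Day 12 +Wnt, where 32.5% of all genes were.

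Among the receptors, Plxnd1 changed most. This plexin is best known from endothelial cells, where it restrains vessel growth, and also acts in neurons. It was at 21.7, 20.2 and 21.4 CPM at Day 10, 63.9, 52.8 and 87.7 CPM in the Day 12 +Fgf libraries and 3.27, 3.62 and 4.57 CPM in those of Day 12 +Wnt. By Day 15 it was at 48.4, 47.8 and 45.2 CPM in +Fgf and 73.8, 74.7 and 64.8 CPM in +Wnt. The Day 12 +Wnt libraries lay far below all others. At Day 15 the +Fgf libraries were the lower ones (log2 fold change -0.59 ± 0.14, adjusted p = 0.00137, and -0.91 with RNA integrity number as a covariate). The drop from Day 10 to Day 12 +Wnt was 5.23-fold (log2 fold change -2.39 ± 0.14, adjusted p = 1e-09), and the rise from there to Day 15 +Wnt was 17.4-fold (log2 fold change 4.12 ± 0.14, adjusted p = 1.06e-12). In +Fgf the gene rose 3.13-fold by Day 12 (log2 fold change 1.65 ± 0.14, adjusted p = 7.71e-08) and fell by 0.50 ± 0.14 by Day 15 (adjusted p = 0.00628), a value that was -0.30 without Day 12 +Fgf replicate 3, the library with 87.7 CPM, and -0.85 with RNA integrity number as a covariate. The sum of the 8 endothelial genes was highest in Day 15 +Wnt, where Plxnd1 was also high, and lowest in Day 12 +Fgf. Of these 8 genes, 3 at Day 10, 2 in Day 12 +Fgf and 4 in each of the other groups were at no more than 3 reads in every library, and their part in the Plxnd1 values was not tested.

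Of the type A plexins, the signalling partners of neuropilins, Plxna4 and Plxna2 rose in Day 15 +Wnt. Plxna4 was at 11.6, 8.76 and 9.02 CPM at Day 10, 5.89, 5.86 and 5.62 CPM in the Day 12 +Fgf libraries and 9.44, 9.74 and 14.0 CPM in those of Day 12 +Wnt, then at 10.7, 18.2 and 17.2 CPM in the Day 15 +Fgf libraries and 37.8, 54.1 and 40.3 CPM in those of Day 15 +Wnt. It thus fell in Day 12 +Fgf (log2 fold change -0.72 ± 0.19, adjusted p = 0.0048) and rose from Day 12 to Day 15 under both stimulations, by 1.32 in +Fgf and by 1.97 in +Wnt on the log2 scale. At Day 15 it was lower in +Fgf than in +Wnt (log2 fold change -1.52 ± 0.19, adjusted p = 2.43e-06).

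Plxna2 was at 30.5, 33.4 and 31.4 CPM at Day 10, 27.6, 26.2 and 32.0 CPM in the Day 12 +Fgf libraries and 20.2, 18.7 and 23.0 CPM in those of Day 12 +Wnt. In Day 15 +Fgf replicate 1 lay at 16.2 CPM, below replicates 2 and 3 at 33.2 and 38.2 CPM, and in Day 15 +Wnt the values were 65.0, 69.9 and 70.1 CPM. The rise within +Wnt was 3.29-fold (log2 fold change 1.72 ± 0.20, adjusted p = 1.29e-06). The difference between the stimulations at Day 15 was -1.31 ± 0.20, adjusted p = 2.58e-05, and -0.87 (adjusted p = 0.0665) with RNA integrity number as a covariate. Plxna2 was also lower in Day 12 +Wnt than at Day 10, by 0.62 on the log2 scale, a call lost without Day 12 +Wnt replicate 2 (-0.55, adjusted p = 0.0566).

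Plxna1 and Plxna3 moved less. Plxna1 was the highest of the type A plexins per kb of exon in every group. Its level was 178 ± 9.71 CPM at Day 10 and between 119 and 144 CPM on average in the other groups, and was lower than at Day 10 in both Day 12 groups (log2 fold change -0.58 ± 0.08, adjusted p = 7.82e-06 in +Fgf and -0.40 ± 0.08, adjusted p = 0.000251 in +Wnt). A gene on the opposite strand, Gm26811, shares 970 bases, 10.7%, of the Plxna1 exons, and the strand setting of the counting was not given in the sources used here, so their reads cannot be told apart. Plxna3 was at 42.5 to 45.8 CPM on average through Day 12 and rose to 63.4 ± 4.53 CPM in the Day 15 +Fgf libraries and 67.8 ± 4.90 CPM in those of Day 15 +Wnt.

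Type B plexins bind class 4 semaphorins. Plxnb2 rose in small steps, from 217 ± 4.52 CPM at Day 10 to 264 ± 11.3 CPM in the Day 12 +Fgf libraries and 271 ± 6.04 CPM in those of Day 12 +Wnt, and then to 294 ± 11.9 CPM in the Day 15 +Fgf libraries and 369 ± 15.5 CPM in those of Day 15 +Wnt, where the stimulations differed (log2 fold change of +Fgf against +Wnt -0.33 ± 0.04, adjusted p = 4.83e-06). The step from Day 12 to Day 15 +Fgf, 0.16 on the log2 scale, was 0.02 (adjusted p = 0.912) with RNA integrity number as a covariate. Plxnb1 stayed between 109 and 155 CPM in all 15 libraries. Plxnb3 was at 0 in all Day 10 and Day 12 libraries, had 2 to 5 reads in Day 15 +Fgf and 0 to 2 reads in Day 15 +Wnt, and no comparison was made on it.

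Plxnc1, the receptor of Sema7a, was at 16.3, 17.0 and 18.3 CPM at Day 10, 19.2, 22.4 and 17.9 CPM in the Day 12 +Fgf libraries and 11.6, 12.5 and 12.5 CPM in those of Day 12 +Wnt. The Day 15 levels were 50.4, 49.9 and 42.2 CPM in +Fgf and 31.6, 36.5 and 27.1 CPM in +Wnt. It was lower in +Wnt than in +Fgf on both days without overlap, and rose from Day 12 to Day 15 by a log2 fold change of 1.25 ± 0.11, adjusted p = 6.55e-08 in +Fgf and 1.34 ± 0.11, adjusted p = 1.35e-08 in +Wnt. The Day 15 difference of 0.58 (adjusted p = 0.00015) became 0.38 (adjusted p = 0.134) with RNA integrity number as a covariate.

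The neuropilins, co-receptors of class 3 semaphorins and of Vegf, followed different courses. Nrp2 was at 60.2, 50.6 and 53.8 CPM at Day 10, 37.7, 40.9 and 54.9 CPM in the Day 12 +Fgf libraries and 46.7, 42.9 and 49.6 CPM in those of Day 12 +Wnt. In Day 15 +Fgf it was at 19.9, 43.5 and 46.7 CPM, with replicate 1 below the other two, and in Day 15 +Wnt at 181, 209 and 162 CPM. The Day 15 +Wnt libraries were the highest of all by a wide gap. The rise in +Wnt from Day 12 to Day 15 was 3.94-fold (log2 fold change 1.98 ± 0.22, adjusted p = 7.58e-07), and at Day 15 Nrp2 was 5.29-fold lower in +Fgf than in +Wnt (log2 fold change -2.40 ± 0.22, adjusted p = 6.46e-08, and -2.02 without Day 15 +Fgf replicate 1). The neural crest and mesenchyme list and the forebrain list were also highest in Day 15 +Wnt. Sox10 and Foxd3 of the former list had at most 3 reads in each of these libraries. The part of both lists in this value was not tested.

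Nrp1 was at 3.27, 3.68 and 4.05 CPM at Day 10, 14.2, 13.5 and 16.0 CPM in the Day 12 +Fgf libraries and 4.40, 3.34 and 3.97 CPM in those of Day 12 +Wnt. At Day 15 it was at 25.4, 22.7 and 25.9 CPM in +Fgf and 24.7, 24.2 and 20.8 CPM in +Wnt. At Day 12 the +Wnt libraries overlapped those of Day 10 while the +Fgf libraries lay above both, and by Day 15 the stimulations overlapped. The rise in Day 12 +Fgf was 3.75-fold (log2 fold change 1.91 ± 0.12, adjusted p = 2.65e-09), and in +Wnt it came between Day 12 and Day 15, 5.62-fold (log2 fold change 2.49 ± 0.12, adjusted p = 4.08e-11). At Day 15 the difference between +Fgf and +Wnt was 0.08 ± 0.12 on the log2 scale (adjusted p = 0.552).

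Compared per kb of exon, which is the scale on which genes can be set side by side, Plxnb2 had the highest level of the family in all 5 groups, from 28.1 ± 0.585 CPM per kb at Day 10 to 47.9 ± 2.00 CPM per kb at Day 15 +Wnt. Plxna1, Sema4c, Plxnb1 and Sema6a followed at Day 10, at 19.7, 17.3, 12.5 and 10.1 CPM per kb, and the ranges of Plxnb1 and Sema6a met at their ends, at 11.3 and 11.4 CPM per kb. When the longest transcript was used as the length, Sema3a took the place of Sema6a among the 5 highest at Day 10, and Sema6a that of Plxna1 in Day 12 +Fgf. Nrp2 joined the highest genes at Day 15 +Wnt alone, with 15.5 ± 1.97 CPM per kb, where its range overlapped that of Plxna1 at 15.9 ± 0.564 CPM per kb. In Day 12 +Fgf and Day 15 +Fgf, Sema3f was among the 5 highest, at 14.6 ± 0.882 and 15.5 ± 1.45 CPM per kb. Summed over classes, the neuropilins went from 4.32 ± 0.322 to 17.9 ± 2.13 CPM per kb within +Wnt, the type A plexins from 22.4 ± 1.82 to 31.6 ± 1.25 and the class 6 semaphorins from 14.2 ± 0.782 to 27.8 ± 2.37 CPM per kb. The class 3 sum in Day 15 +Wnt, 10.6 ± 0.467 CPM per kb, remained below that at Day 10.

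**Figure D3:**
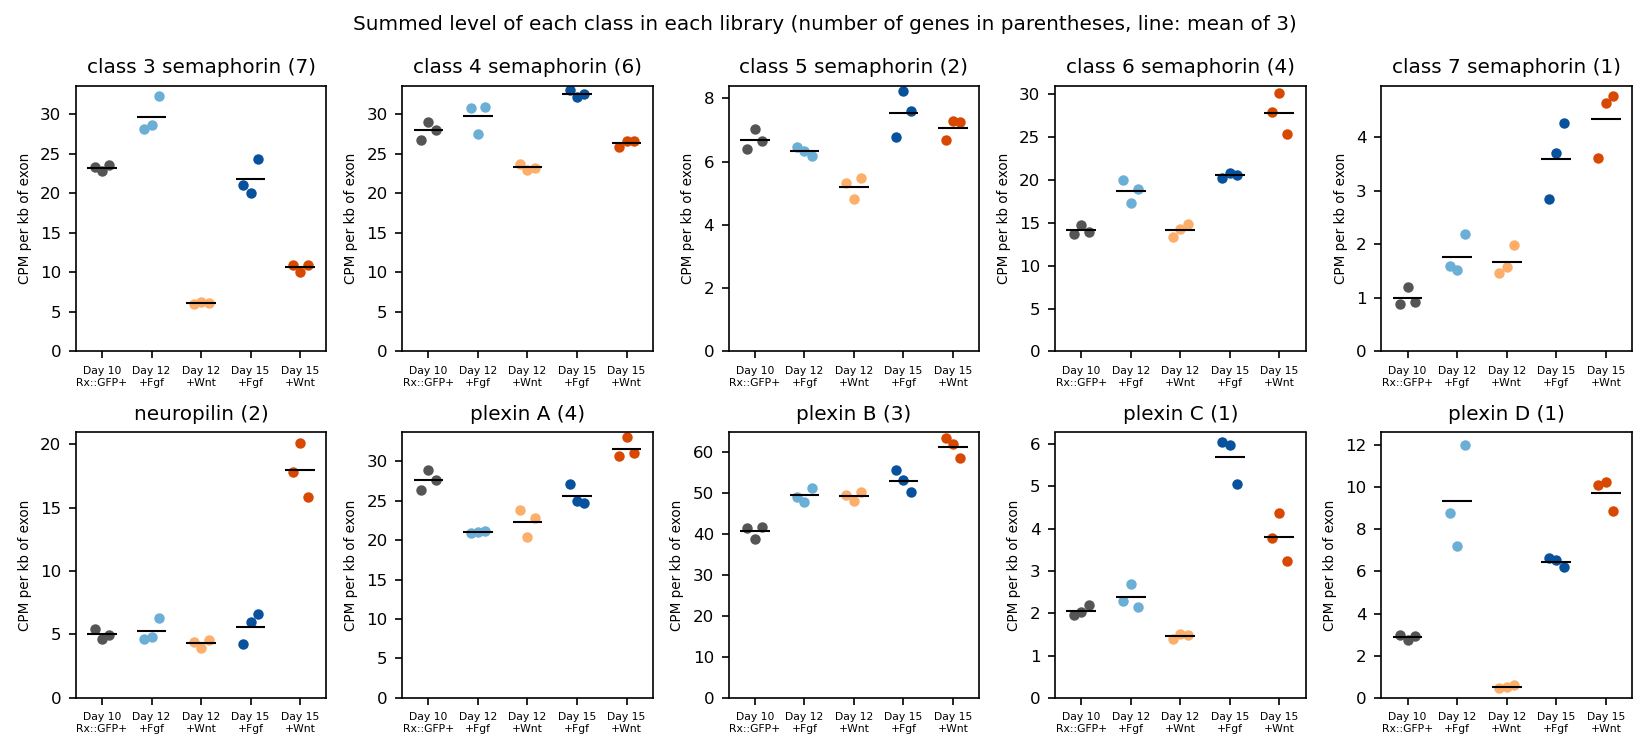
Summed level of each class of the family in CPM per kb of exon (vertical axes, each starting at 0) in each library (points), by group (horizontal axes), with the mean of 3 libraries (line) and the number of genes summed in parentheses. The class 3 sum is lowest in Day 12 +Wnt, at 5.97 to 6.29, and the neuropilin sum is highest in Day 15 +Wnt, at 15.8 to 20.1.

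The maturation step from Day 12 to Day 15 was then compared between the stimulations by an interaction term. It passed the threshold for 16 of the 29 genes, where 47.9% of all genes tested did. In all 16 the change was more upward in +Wnt than in +Fgf, while among all genes 20.9% were called in this direction and 27.0% in the other. The difference was largest for Sema3e (log2 -4.76 ± 0.33, adjusted p = 1.29e-08), Sema3d (-4.65 ± 0.22, adjusted p = 1.71e-10) and Plxnd1 (-4.62 ± 0.20, adjusted p = 6.85e-11), which were low in Day 12 +Wnt and fell from Day 12 to Day 15 in +Fgf. It was -2.33 for Nrp2, -1.77 for Plxna2, -1.74 for Nrp1 and -1.67 for Sema3a. Both comparisons that enter this term share the Day 12 and Day 15 libraries with those given above, so it restates those values as a difference. With RNA integrity number as a covariate 12 members passed, where 27.8% of all genes did, and the calls of Sema3b, Sema4a, Sema4b, Sema4f and Sema5a were lost (adjusted p from 0.128 to 0.662). The smaller differences of Sema4b (-0.36), Sema5a (-0.41) and Sema4f (-0.62) each lost their call when certain single libraries were left out. Sema4c without Day 12 +Fgf replicate 1 and Sema4g without Day 12 +Wnt replicate 2 were called in the other direction.

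**Figure D4:**
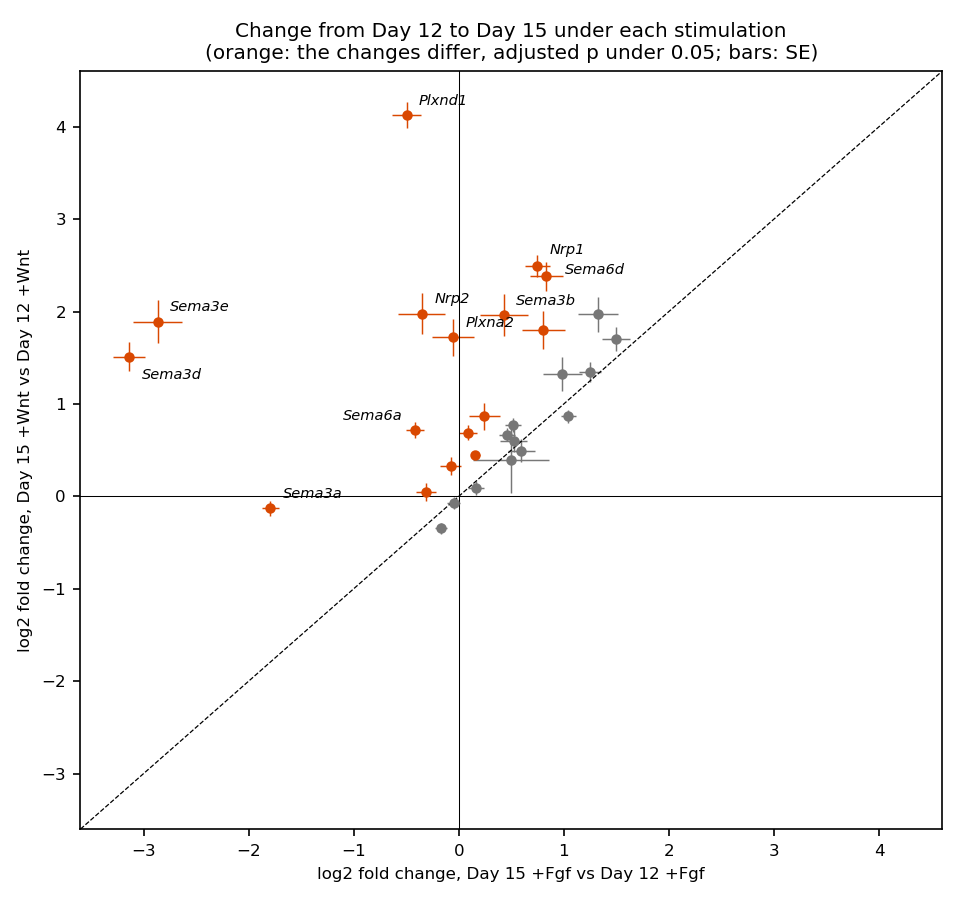
Log2 fold change from Day 12 to Day 15 in +Fgf (horizontal axis) and in +Wnt (vertical axis) for the 29 tested genes, with SE bars, the line of equal change (dashed) and orange where the difference passed the threshold. The 16 orange genes all lie above the line, with Plxnd1 at -0.50 and 4.12, Sema3d at -3.14 and 1.51 and Sema3e at -2.87 and 1.89.

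A list of 50 other genes of the pathway was read in the same way, of which all but Trem2 passed the filter. In Day 12 +Fgf against Day 10, 30 of the 49 were called (25 higher, 5 lower), or 61.2%, against 55.7% of all genes. In Day 12 +Wnt against Day 10 there were 26 (15 and 11), or 53.1% against 60.2%. From Day 12 to Day 15 there were 37 (22 and 15) in +Fgf, 75.5% against 57.1%, and 24 (19 and 5) in +Wnt, 49.0% against 68.0%. Quantile normalization gave 33 (21 and 12) for the last of these, where 70.0% of all genes were then called. Between the stimulations 32 differed at Day 12 (21 higher and 11 lower in +Fgf), 65.3% against 51.5%, and 33 at Day 15 (23 and 10), 67.3% against 68.7%. With edgeR on the recovered reads 36 (21 and 15) differed at Day 15, where 67.3% of all genes did. With RNA integrity number as a covariate the calls were 18 for Day 12 +Fgf against Day 10 (40.5% of all genes) and 22 for Day 15 +Fgf against Day 12 +Fgf (25.9%). Of the 12 collapsin response mediator proteins and kinases that relay semaphorin signals in neurons, 9 rose and 1 fell from Day 12 to Day 15 in +Fgf, where 27.2% of all genes rose and 29.9% fell, and 7 rose and 1 fell in +Wnt, where 32.5% and 35.5% did. Of the 17 effectors of plexins, GTPases with their exchange factors and the MICAL oxidases, 12 were higher and 3 lower in Day 15 +Fgf than in Day 15 +Wnt, beside 38.0% and 30.6% of all genes. From Day 12 to Day 15, 4 of these effectors rose and 9 fell in +Fgf, and 3 rose and 4 fell in +Wnt, beside the shares of all genes just given. Of 7 Vegf ligands and receptors, Kdr not among them, none was higher and 4 were lower in Day 15 +Fgf than in Day 15 +Wnt.

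Kdr, the Vegf receptor that pairs with neuropilins, differed most between the stimulations in this list. Its levels were 34.3, 58.4 and 54.3 CPM at Day 10, then 155, 98.1 and 169 CPM in the Day 12 +Fgf libraries and 3.15, 3.27 and 6.82 CPM in those of Day 12 +Wnt. By Day 15 they had reached 265, 262 and 216 CPM in +Fgf and 21.0, 20.0 and 14.0 CPM in +Wnt. The +Fgf libraries lay above those of +Wnt on both days, 30.9-fold at Day 12 (log2 fold change 4.95 ± 0.26, adjusted p = 1.39e-10) and 13.4-fold at Day 15 (log2 fold change 3.75 ± 0.26, adjusted p = 1.81e-09). The 8 endothelial genes, given above, summed to no more than 3.98 CPM in the +Fgf libraries of both days, with 2 of the 8 at Day 12 and 4 at Day 15 at no more than 3 reads, and their part in the Kdr values was not tested. Against Day 10, Kdr was lower in Day 12 +Wnt (log2 fold change -3.43) and higher in Day 12 +Fgf (1.51), and it rose from Day 12 to Day 15 in +Wnt (2.05). Met, the hepatocyte growth factor receptor that associates with type B plexins, was likewise higher in +Fgf (log2 fold change 1.94 at Day 12 and 2.21 at Day 15), and was lower in Day 12 +Wnt than at Day 10 (-2.73). Vegfa, a ligand of both neuropilins, rose from 74.5 ± 16.4 to 305 ± 30.5 CPM within +Wnt (log2 fold change 2.05 ± 0.16, adjusted p = 1.16e-08) and from 75.3 ± 17.4 to 236 ± 22.7 CPM within +Fgf (log2 fold change 1.67 ± 0.16, adjusted p = 2.53e-07). Pgf, a ligand of the Vegf family, was lower in Day 15 +Fgf than in Day 15 +Wnt (-1.80).

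The adhesion molecules that associate with neuropilins in axons also changed. L1cam rose from Day 12 to Day 15 in +Fgf (log2 fold change 2.64) and in +Wnt (2.02). Chl1, its relative, was higher in +Wnt than in +Fgf, at 12.3 ± 2.80 against 3.67 ± 3.16 CPM at Day 12 and 63.5 ± 13.7 against 6.46 ± 6.57 CPM at Day 15, but its Day 12 call was lost without Day 12 +Fgf replicate 3 (-1.38, adjusted p = 0.0597) and its Day 15 call with RNA integrity number as a covariate (-2.14, adjusted p = 0.0962). Chl1 was also higher in Day 12 +Wnt than at Day 10 (log2 fold change 2.57, or 1.74 with adjusted p = 0.0526 under that covariate), and it rose from Day 12 to Day 15 in +Wnt (2.34). Cntn2, a contactin of early axons, rose from 7.64 ± 1.31 CPM at Day 10 to 81.1 ± 14.1 CPM in the Day 12 +Wnt libraries (log2 fold change 3.36) and 23.6 ± 4.19 CPM in those of Day 12 +Fgf (1.59). From Day 12 to Day 15 it rose to 176 ± 26.3 CPM in +Fgf (2.89) and to 146 ± 24.5 CPM in +Wnt (0.84), and the Day 15 difference between them did not pass the test (adjusted p = 0.139). Crmp1, Dpysl3 and Cdk5r1 are neuronal genes of the mediator group. From Day 10 to Day 12 +Fgf, Dpysl3 rose by 1.90 and Crmp1 by 1.32 on the log2 scale. From Day 12 to Day 15 +Fgf, Cdk5r1 rose by 2.62 and Crmp1 by 1.91 on that scale. Mean levels of each of these genes rose under Wnt stimulation too. Crmp1 went from 26.2 CPM at Day 10 to 97.7 (Day 12 +Wnt) and 296 (Day 15 +Wnt). The corresponding means were 13.7, 49.3 and 172 CPM for Cdk5r1 and 34.6, 73.8 and 227 CPM for Dpysl3. Day 15 +Fgf means were 245 for Crmp1, 73.5 for Cdk5r1 and 245 for Dpysl3. Cdk5r1 was lower in Day 12 +Fgf than in Day 12 +Wnt (log2 fold change -2.03). The neuronal marker list rose over the same steps, and its part in these values was not tested.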

How the data were processed

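RNA-Seq libraries were made by the study with a stranded mRNA kit from 5 groups of 3 samples. Per the labels and methods, reads were demultiplexed with bcl2fastq 1.8.4, checked with FastQC 0.10.1, aligned to mm10 with TopHat2 2.0.8b and counted per gene with Cuffdiff of Cufflinks 2.1.1, and these counts were the input to edgeR 3.2.4. The deposited signal values are the normalized CPM from edgeR, whose normalization method was not given in the sources used here. The strand setting of the counting was not given in the sources used here. Each value was a whole multiple of what 1 read is worth (100% of values within 0.02 reads), which gave the reads per library.

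Groups were compared with limma 3.58.1 (R 4.3.3) on log2(CPM + 0.3) with 5 group means and a mean-variance trend, over the 13845 of 23244 entries with at least 1 CPM in at least 3 libraries. P-values were Benjamini-Hochberg adjusted per comparison (threshold 0.05). The fit was tested on simulated data. Summaries used Python 3.11.15, pandas 2.3.3 and NumPy 2.4.6, and plots matplotlib 3.10.9. Exon lengths and positions came from a GRCm38 annotation and promoters from RefSeq. Every library value is given for members with an adjusted p under 0.05, a log2 change of at least 1 and at least 5 CPM in the higher group in any comparison, and for the partner list the 4 largest changes per comparison are named. Library values of Sema3c were added after its values were seen. The members and all lists were chosen with earlier results of these data known. Alternatives covered the pseudocount, filter, scaling, moderation, covariates, replicate block, libraries in the fit, single libraries left out and edgeR 4.0.16 on the recovered reads. The tables of the study's own comparisons were not used here.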

Additional observations from a re-analysis of the deposited data

Results flagged for a closer look

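The change from Day 12 to Day 15 differed between the stimulations for 16 members, by the limma interaction term adjusted over all genes tested. As the log2 change in +Fgf minus that in +Wnt, the secreted ligands gave -4.76 for Sema3e, -4.65 for Sema3d, -1.67 for Sema3a, -1.53 for Sema3b and -0.60 for Sema3f. The membrane ligands gave -1.55 for Sema6d, -1.14 for Sema6a, -0.99 for Sema4a, -0.62 for Sema4f, -0.41 for Sema5a and -0.36 for Sema4b. The receptors gave -4.62 for Plxnd1, -2.33 for Nrp2, -1.77 for Plxna2, -1.74 for Nrp1 and -0.29 for Plxnb2.

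Calls of 3 of these genes were lost when a single library was left out. Sema4b lost its call without Day 12 +Fgf replicate 3, Day 12 +Wnt replicate 2 or 3, Day 15 +Fgf replicate 2 or Day 15 +Wnt replicate 2 or 3 (-0.29 to -0.37, adjusted p from 0.0532 to 0.0971). Sema5a lost its call without Day 12 +Fgf replicate 1 or 3, Day 12 +Wnt replicate 2, Day 15 +Fgf replicate 3 or Day 15 +Wnt replicate 1 or 2 (-0.34 to -0.40, adjusted p from 0.0506 to 0.0754). Sema4f lost its call without Day 12 +Fgf replicate 1 (-0.52, adjusted p = 0.0586) or Day 15 +Fgf replicate 1 (-0.52, adjusted p = 0.0562).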

How the results depend on the processing

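Of 135 member calls, 109 were kept under every alternative run and 26 were lost under at least 1, with none reversed. Of the 59 calls of at least 1 on the log2 scale, 55 were kept under every alternative, and the other 4, Sema4a in Day 12 +Fgf against Day 10, Plxna2 and Sema3b between the stimulations at Day 15 and the Sema3b interaction (-1.06, adjusted p = 0.144), were lost with RNA integrity number as a covariate. Of the 66 weakened values, 38 came from leaving out single libraries and 19 from that covariate. That covariate also gave 18 partner genes in place of 30 for Day 12 +Fgf against Day 10, and 22 in place of 37 for Day 15 +Fgf against Day 12 +Fgf. It follows the groups closely, and the cause was not tested. Over all alternatives the members called ranged from 16 to 20 in Day 12 +Fgf against Day 10, 19 to 23 in Day 12 +Wnt against Day 10, 15 to 23 from Day 12 to Day 15 in +Fgf, 21 to 26 in +Wnt, 15 to 21 between the stimulations at each day and 12 to 17 for the interaction. With edgeR's quasi-likelihood test, run on the reads recovered, the calls numbered 7764, 8330, 7842, 9262, 7132 and 9318 of the 13845 genes in the 6 comparisons in the order Day 12 +Fgf and Day 12 +Wnt against Day 10, Day 15 against Day 12 in +Fgf and in +Wnt, and +Fgf against +Wnt at Day 12 and Day 15. Replicate numbers gave no sign of pairing the samples, in a check of deviations from group means that cannot exclude pairing. The median correlation was -0.008 in same-numbered pairs and -0.008 in the others. Of 30 same-numbered pairs 7 correlated over 0.1, and 6 of 15 libraries correlated best with their own number. With the replicate block the members called were 18, 22, 20, 24, 18 and 18 in the same order, with 1 member call lost, the Sema4b interaction (-0.36, adjusted p = 0.0502). Genes of a few reads, such as Plxnb3 and Sema3g, could not be compared at this depth.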
